A study of Mus musculus with 24 samples.

Results

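Broad peaks were taken as the accessible regions on chromosomes 1 to 19 whose end minus start was 2000 bases or more in the deposited single-nucleus ATAC table of the mouse amygdala. ATAC-seq uses a transposase to cut DNA that is not packed by nucleosomes, so the count of a peak measures how open that stretch of chromatin is. The rule used positions alone, and it found 2715 peaks among 266399 on these chromosomes (1.02%) and 271433 in the table. These positions come from peak calling, whose settings are not given in the sources used here. How far width itself follows depth or the number of open cell types was not tested. Another 113 peaks of this width lay on other sequences and were not members. The animals were adult males of the inbred strains BL6 and DBA, 10 to 16 weeks old, carrying no engineered allele and given no treatment that the labels name. Tissue of about 2 animals was pooled into a library, with 2 libraries per strain for ATAC and 2 for RNA, so p-values measure the spread between pools. Counts were deposited as sums over the nuclei of each of 22 cell types in each library, named by class and a gene (Exc for excitatory, Inh for inhibitory and NN for non-neuronal nuclei). The tables number the libraries 2 and 3 where the sample titles number them 1 and 2, and the tables' numbers are used here.

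Most mammalian genes start in a stretch of DNA that is kept free of nucleosomes in every cell, often over a CpG island, where the dinucleotide CG is common and usually unmethylated. Distal elements such as enhancers are typically open in a few cell types, and they are usually narrower than the open region of a strong start site. Wide open regions are known from developmental regulators and from very active genes, and repeated sequences such as the ribosomal RNA genes can also give wide and tall signals.

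Promoter sequences are printed for 8 members that recur in the results. Each is the 250 bases before the RefSeq start of the gene (GRCm38.p6, the build named mm10), read 5′ to 3′ on the gene's strand, with every CG in capitals. Rap2a has the second-highest count per kb of all members, Grin1 stands for the receptor genes, Sox2 and Pou3f2 for the cell-type differences, and Bzw1, Tmem267, Fggy and Asb4 for the strain differences.
Rap2a: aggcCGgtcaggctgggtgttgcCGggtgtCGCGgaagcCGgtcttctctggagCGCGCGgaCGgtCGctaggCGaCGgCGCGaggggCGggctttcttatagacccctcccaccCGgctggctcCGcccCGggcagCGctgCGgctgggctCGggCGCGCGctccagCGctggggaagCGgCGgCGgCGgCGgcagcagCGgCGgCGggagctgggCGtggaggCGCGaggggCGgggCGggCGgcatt
Grin1: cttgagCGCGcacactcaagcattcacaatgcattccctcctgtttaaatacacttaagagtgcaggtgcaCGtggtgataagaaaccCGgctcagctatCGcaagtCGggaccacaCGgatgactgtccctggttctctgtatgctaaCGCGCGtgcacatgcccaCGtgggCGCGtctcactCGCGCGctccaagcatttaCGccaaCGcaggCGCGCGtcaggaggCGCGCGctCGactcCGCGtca
Sox2: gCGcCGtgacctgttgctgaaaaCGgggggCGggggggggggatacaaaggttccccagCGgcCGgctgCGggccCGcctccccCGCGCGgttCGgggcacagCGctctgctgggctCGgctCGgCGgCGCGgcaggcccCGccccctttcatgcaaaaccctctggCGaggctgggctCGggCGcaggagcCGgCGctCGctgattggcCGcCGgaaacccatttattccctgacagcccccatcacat
Pou3f2: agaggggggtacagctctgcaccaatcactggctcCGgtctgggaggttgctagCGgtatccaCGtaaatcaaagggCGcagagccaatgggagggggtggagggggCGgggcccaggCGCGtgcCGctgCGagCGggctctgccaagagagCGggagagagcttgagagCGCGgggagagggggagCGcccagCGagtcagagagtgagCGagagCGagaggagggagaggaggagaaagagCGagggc
Bzw1: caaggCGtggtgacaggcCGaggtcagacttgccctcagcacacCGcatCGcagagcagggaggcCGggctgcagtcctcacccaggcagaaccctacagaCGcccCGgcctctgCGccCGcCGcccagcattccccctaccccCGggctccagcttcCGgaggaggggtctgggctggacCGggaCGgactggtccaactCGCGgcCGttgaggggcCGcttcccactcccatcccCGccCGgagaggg
Tmem267: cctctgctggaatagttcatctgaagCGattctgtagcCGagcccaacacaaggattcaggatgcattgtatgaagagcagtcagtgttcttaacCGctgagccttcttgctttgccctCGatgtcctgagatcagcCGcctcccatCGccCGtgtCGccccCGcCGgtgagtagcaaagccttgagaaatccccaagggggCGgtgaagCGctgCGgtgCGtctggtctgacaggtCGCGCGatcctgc
Fggy: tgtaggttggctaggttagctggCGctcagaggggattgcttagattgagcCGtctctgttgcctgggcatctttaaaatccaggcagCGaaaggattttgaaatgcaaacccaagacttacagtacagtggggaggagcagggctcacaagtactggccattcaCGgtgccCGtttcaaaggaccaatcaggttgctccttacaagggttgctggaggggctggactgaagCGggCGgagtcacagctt
Asb4: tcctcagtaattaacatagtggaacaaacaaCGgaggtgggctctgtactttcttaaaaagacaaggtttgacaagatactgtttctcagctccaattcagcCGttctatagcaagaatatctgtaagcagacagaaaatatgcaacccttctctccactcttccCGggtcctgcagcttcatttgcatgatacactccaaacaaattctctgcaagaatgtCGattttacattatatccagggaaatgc

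These 8 stretches differed in base composition. The Rap2a stretch (chr14:120478211-120478460, + strand) holds 39 CG dinucleotides and is 78.0% G or C. The Grin1 stretch (chr2:25319188-25319437, - strand) and the Sox2 stretch (chr3:34649745-34649994, + strand) hold 27 CG each, at 58.8% and 72.0% G or C. The Bzw1 stretch (chr1:58392648-58392897, + strand) holds 20, the Pou3f2 stretch (chr4:22488367-22488616, - strand) 18 and the Tmem267 stretch (chr13:119487836-119488085, + strand) 17. Fggy (chr4:95557257-95557506, + strand) has 7 and Asb4 (chr6:5383136-5383385, + strand) 4, at 53.2% and 40.8% G or C. Wide open chromatin was thus also found over promoters with few CG.

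The ATAC libraries held 66535381 to 86927891 counts from 3694 to 6943 nuclei, and the RNA libraries 30693629 to 66304405 counts from 2867 to 8079 nuclei. Excitatory and inhibitory nuclei gave 25578781 counts or more per ATAC library, whereas the non-neuronal nuclei gave 1222826 to 1847735 from 67 to 167 nuclei. Cell types were compared where every library had 10 nuclei and 100000 counts or more, which 16 of the 22 types met. The classes were checked on RNA: all 7 excitatory markers were highest in excitatory nuclei (474 to 581 CPM summed over the list, against 33.8 to 66.5 in the other classes) and all 7 inhibitory markers in inhibitory nuclei (489 to 522 against 6.97 to 76.0). Of the 34 markers of non-neuronal types, 31 were highest in non-neuronal nuclei. The summed microglial list was at 415 to 749 CPM there and at 182 to 204 in excitatory nuclei. The RNA came from libraries separate from the ATAC ones, so this check does not cover the class names of the ATAC nuclei.

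Most broad peaks sat just above the width limit. Their widths ran from 2000 to 5785 bases with a median of 2219. Of the 2715, 744 (27.4%) were under 2100 bases, 2147 (79.1%) under 2500, and 110 (4.05%) were 3000 or more. Peaks just inside the limit, at 2000 bases, were chr10:6978624-6980624 at Ipcef1, chr12:6637709-6639709, and chr15:57974941-57976941 at the transfer RNA gene n-TMcat16, with a count density, in CPM (counts scaled to a common library total) per kb, of 7.22, 6.78 and 19.7. Just outside it, 1 base narrower, lay chr1:80339397-80341396 at Cul3, chr10:68103307-68105306 in Arid5b and chr11:117597654-117599653, with 27.7, 9.03 and 12.5 CPM per kb.

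Broad peaks held far more counts than their number or their length gives. They covered 6.29 Mb, or 3.98% of the bases in autosomal peaks, and held 9.85% and 10.3% of the autosomal counts in BL6 libraries 2 and 3 and 10.6% and 10.2% in DBA libraries 2 and 3. The strains overlapped (10.1% ± 0.330 in BL6 and 10.4% ± 0.302 in DBA, SD, n = 2 each). Per kb, the median broad peak had 14.3 CPM (quartiles 7.69 and 20.8) against 3.01 (2.06 and 5.04) in narrower peaks. Density rose with width up to this class, from 2.56 CPM per kb under 500 bases to 3.36 from 500 to under 1000, 5.92 from 1000 to under 2000, 14.3 from 2000 to under 3000 and 14.7 at 3000 or more.

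A single member stood far above the others. The widest peak, chr17:39842992-39848777 over Rn18s-rs5, an annotated copy of the 18S ribosomal RNA gene, was 5785 bases wide and had 4141, 4591, 6399 and 3821 CPM in BL6 2, BL6 3, DBA 2 and DBA 3. DBA library 2 was the highest and the strains overlapped. This peak alone held 0.388% to 0.650% of the autosomal counts of a library and 3.82% to 6.13% of the counts in broad peaks. Ribosomal RNA genes are near-identical repeats, and how reads from other copies were placed is not given in the sources used here, so the level is uncertain. Without it the share of counts in broad peaks was 9.47%, 9.90%, 10.0% and 9.82% in the same order of libraries.

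The next members by counts per kb were far below it. Rap2a, a small GTPase of the Ras family, had 58.5 CPM per kb with 127, 135, 133 and 133 CPM in the 4 libraries (order as above). Sp1, a zinc finger factor that binds GC boxes, had 52.5 CPM per kb, as did the shared start of Akt1s1 and Tbc1d17. Crlf2, a cytokine receptor subunit, had 52.2, a peak at chr9:124422459-124426058 with no named gene 51.5, the kinase gene Gsk3b 50.4 and the endoplasmic reticulum chaperone gene Hsp90b1 49.8. None of these 8 densest peaks differed between the strains in all nuclei by edgeR's quasi-likelihood test (adjusted p 0.366 to 0.861). In inhibitory nuclei alone, the peak at chr9:124422459-124426058 was called lower in DBA (-0.29, edgeR adjusted p = 0.0057), and was not called without BL6 library 2 or 3 (adjusted p = 0.29 and 0.50) or by DESeq2 (adjusted p = 0.81). Among the 8 widest, 5 lay at the start or end of a named gene, with Samd4 (3994 bases), the axon guidance ligand gene Efna5 (3889), the kinesin gene Kif26b (3845) and the Notch coactivator gene Maml3 (3742) beside Rn18s-rs5.

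The share of counts in broad peaks differed between cell types by more than the spread of the libraries. Oligodendrocyte precursor nuclei (NN-OPC) had the highest share, 12.4%, 12.7%, 12.9% and 12.7% in the 4 libraries, and microglial nuclei (NN-MGC) 11.9%, 12.1%, 11.7% and 11.6%. The excitatory types Exc-Strip2 and Exc-Tafa1 had the lowest, at 8.79% ± 0.404 and 8.70% ± 0.301 (SD, n = 4 libraries), and no library of either reached the lowest library of any other type. Between them the order was gradual: Exc-Tfap2c 11.6% ± 0.589, Inh-Lypd6b 11.6% ± 0.547, Inh-Htr3a 11.5% ± 0.175, Inh-Sst 11.4% ± 0.250, Inh-Tshz1 11.1% ± 0.136, Inh-Lamp5 11.1% ± 0.225, Inh-Zfhx3 10.9% ± 0.207, Inh-Nxph2 10.9% ± 0.197, Exc-Abi3bp 10.8% ± 0.288, Exc-Vwa5b1 10.5% ± 0.312, Exc-Ebf2 10.3% ± 0.355 and Inh-Drd2 10.2% ± 0.233. From NN-MGC down to Inh-Drd2, the library values of neighbours in that order overlapped. NN-OPC stood above NN-MGC in every library. By class the share was 9.58% ± 0.304 in excitatory, 11.03% ± 0.181 in inhibitory and 12.2% ± 0.103 in non-neuronal nuclei. The NN-OPC and NN-MGC columns rest on 12 to 41 nuclei per library.

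**Figure D1:**
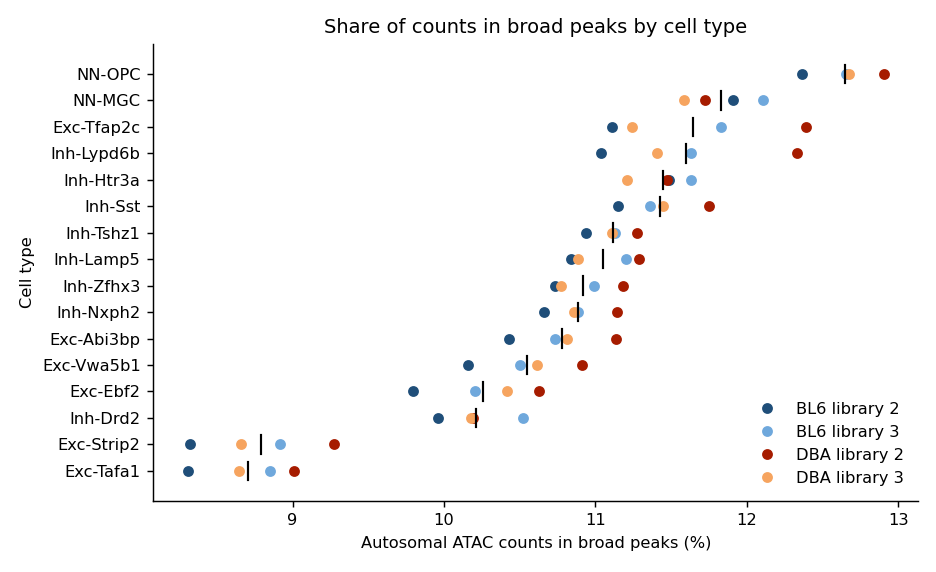
Share of the autosomal ATAC counts of a cell type that fell in broad peaks, in percent, with a point for each of the 4 libraries and a black bar at their mean. NN-OPC is highest at 12.6%, and Exc-Strip2 and Exc-Tafa1 sit apart at the bottom, at 8.79% and 8.70%.

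Most broad peaks sat at the end of a gene. A gene end was the annotated start where the strand was known and either end otherwise. At this rule 1961 of 2715 (72.2%) overlapped a RefSeq gene end, against 15323 of 263684 narrower peaks (5.81%). The share rose with width from 1.18% under 500 bases and 4.08% from 500 to under 1000 to 30.8% from 1000 to under 2000, 71.7% from 2000 to under 3000 and 84.5% at 3000 or more. With protein-coding genes alone it was 66.8%, and 76.3% and 82.4% of broad peaks lay within 2 kb and 10 kb of an end. Of the other members, 457 (16.8%) lay inside a gene and 297 (10.9%) between genes. Only 20 (0.737%) touched the far end of a gene and no start.

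**Figure D2:**
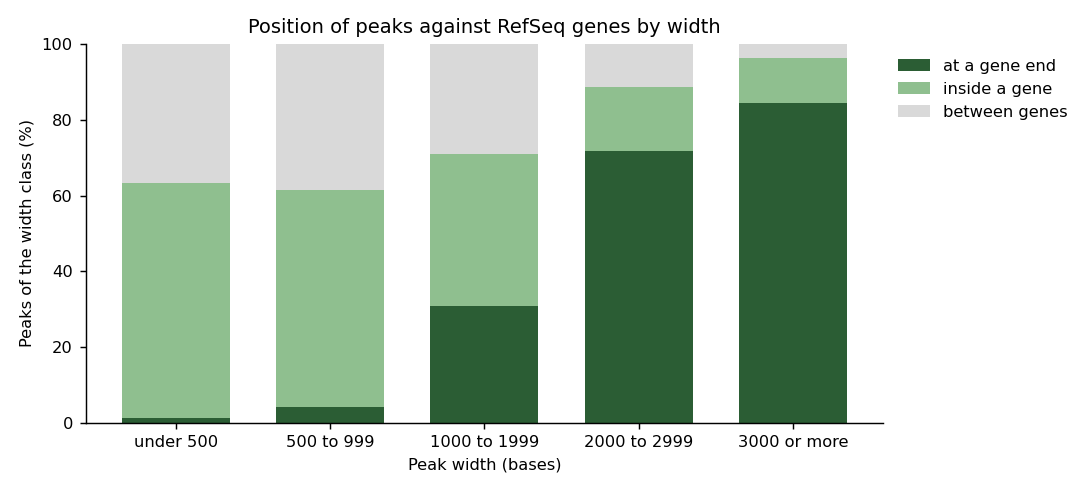
Percent of autosomal peaks at a RefSeq gene end, inside a gene or between genes, in 5 classes of width. The part at a gene end grows from 1.18% under 500 bases to 84.5% at 3000 bases or more.

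A broad peak at a start reached further into the gene than before it. In 1033 broad peaks with a single known start, the median was 884 bases upstream and 1377 bases downstream of that start, and 721 (69.8%) reached further downstream. In narrower peaks the medians were 469 and 663 bases, with 64.4% further downstream, so the lean was present in both. Grin1, the obligatory subunit of NMDA glutamate receptors, was among the most lopsided of the 8 printed members, with 304 bases before the start and 1765 after it. Bzw1 (1046 and 1160) and Asb4 (1076 and 1064) were nearly even. Starts on both strands were covered by 332 of 1571 broad peaks with a known start (21.1%), against 1411 of 11382 narrower ones (12.4%).

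Promoters under broad peaks were rich in G, C and CG. RefSeq windows of 300 bases around the start (250 before to 50 after) were used, of which 2304 fell in a broad peak, for 1907 genes. Their median was 66.0% G or C with 25 CG dinucleotides, and a ratio of observed to expected CG of 0.801. Windows in narrower peaks had medians of 59.7%, 18 and 0.711, and all 31396 windows 53.0%, 7 and 0.389. The GC box (GGGCGG, either strand) was present in 71.2% of windows in broad peaks, in 56.9% of those in narrower peaks and in 35.98% of all windows. Other motifs did not follow this order. The ETS core (CCGGAAG) was in 9.24%, 15.7% and 9.004%, the NRF1 core (GCGCATGC) in 3.04%, 4.82% and 2.70%, and the TATA box (TATAAA) in 4.90%, 7.80% and 13.6% of the same 3 sets. These are matches of letters and show no binding.

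Some gene families carried broad peaks at their ends often and others hardly at all. Over all protein-coding genes on these chromosomes the figure was 1977 of 20665 (9.57%). A peak of any width was present at an end in 13619 of them, so the base includes genes without a peak. Among 34 glutamate and GABA receptor genes, which code for the main excitatory and inhibitory neurotransmitter receptors, 18 had one (52.9%), among them Grin1 and Gabbr2. Chromatin and DNA methylation enzymes had one at 13 of 33 (39.4%), including the methyltransferase gene Dnmt3a, the demethylase gene Tet2 and the acetyltransferase genes Crebbp and Ep300. Homeobox and other identity factors had 17 of 72 (23.6%) and immediate early genes, which respond to neuronal activity, 5 of 22 (22.7%), namely Jun, Egr1, Egr4, Ier5 and Bdnf. Ribosomal protein genes, which are expressed in every cell, had 2 of 77 (2.60%), Rpl7 and Rpl15. Clustered protocadherins, neuronal adhesion molecules with many alternative starts, had 1 of 57, and the 1100 olfactory receptor genes none. Only 14 of those olfactory receptor genes had a peak of any width at an end. Of 47 marker genes in 8 cell-type lists, the excitatory marker Tbr1 alone had one. Many markers had no peak of any width at an end: one was present in 0 of 6 microglial and 6 of 7 inhibitory markers. These are counts over lists chosen with results of these data known, and no list was tested against another.

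Genes with a broad peak were longer than genes with a narrow peak or none, and over all genes their median RNA level was higher. The median RNA level per length was 0.912 CPM per kb of gene in 1945 genes with a broad peak at an end, 0.817 in 9084 whose widest peak was from 1000 to under 2000 bases, 0.240 in 2291 with a peak under 1000 bases and 0.0361 in 4363 with none. The first 2 groups overlapped widely (quartiles 0.456 to 1.66 and 0.333 to 1.64). Among genes with 1000 RNA counts or more the order was gone for genes with a peak, with medians of 1.00, 1.04, 1.05 and 0.794 CPM per kb in the same order. Median gene lengths were 51.8, 25.3, 16.2 and 14.0 kb in the same order.

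Broad peaks were open in more cell types than narrower ones, and their depth went with that difference. Specificity was described by tau, an index over the 16 types that is 0 for an even peak and 1 for a peak in 1 type. The median tau was 0.337 in broad peaks (quartiles 0.252 and 0.459) and 0.669 in narrower ones (0.554 and 0.768). In 842 broad peaks (31.0%) every type had 50% or more of the highest type's level, against 2.31% of narrower peaks. Broad peaks also had a median of 10173 counts against 437. Peaks with 500 counts or more over these types were also thinned to 500 counts. The medians were then 0.490 in 2715 broad and 0.623 in 117909 narrower peaks. Narrower peaks of lower depth were left out, so 0.623 and 0.669 are not over the same peaks. Among peaks of 10000 counts or more the order turned, with a median tau of 0.273 in 1395 broad and 0.259 in 3333 narrower peaks, and with 52.7% against 68.3% reaching 50% in all types. From 3000 to under 10000 counts the medians were 0.393 and 0.389, and from 1000 to under 3000 counts 0.545 and 0.587. The share reaching 50% in all types was lower in broad peaks in these classes as well, at 10.7% against 22.0% and at 0.896% against 1.78%. Within classes of equal counts, broad peaks had the lower median tau only from 1000 to under 3000 counts.

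**Figure D3:**
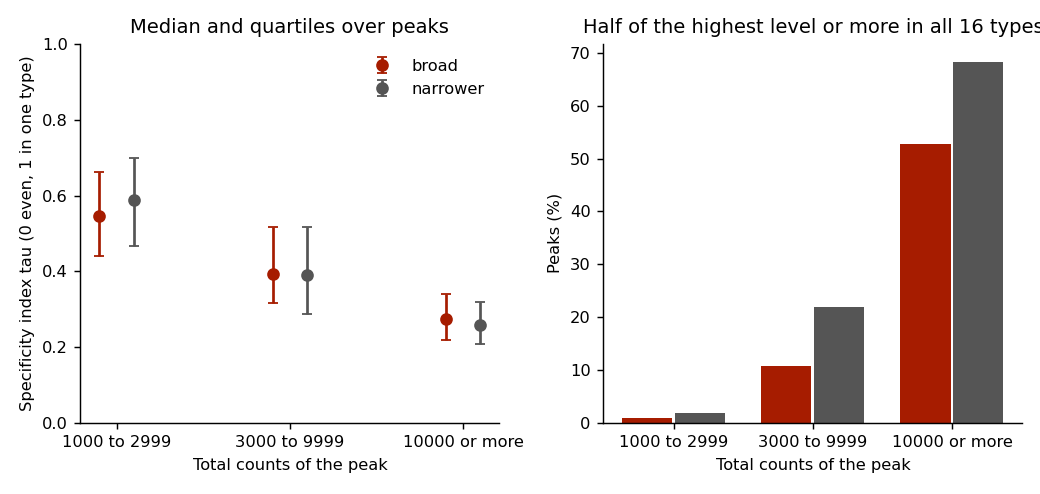
Left, the median specificity index tau with quartiles over peaks; right, the percent of peaks in which all 16 types reach 50% of the highest level; both for broad and narrower peaks in 3 classes of total counts. At 10000 counts or more the medians are 0.273 and 0.259, and the right-hand bars 52.7% and 68.3%.

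Even and specific members differed in position. Broad peaks at a gene end had a median tau of 0.308, those inside genes 0.440 and those between genes 0.515. Their median levels fell in the same order, at 39.3, 14.9 and 10.7 CPM, and the part of depth in this difference was not tested. Among the most even members, all at gene ends, were Tagln3, a neuronal actin-associated protein gene (tau 0.0695), the circadian clock gene Per2 (0.0797), the apoptosis gene Bbc3 (0.0885) and a histone gene start shared by H2ac13, H2bc13 and H3c10 (0.105). Tagln3 had 38.8, 39.2, 39.2 and 38.9 CPM in the 4 libraries, level across strains. The most specific members were chr2:129513642-129515653, highest in NN-MGC (tau 0.928), a peak inside the growth factor gene Tgfa (0.874) and one at Phldb1 (0.865), both highest in NN-OPC, chr12:59520505-59522737, highest in Exc-Tafa1 (0.871), and chr8:95409130-95411992, highest in NN-OPC (0.857).

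Non-neuronal types were most often the highest. The top type was NN-OPC in 751 broad peaks (27.7%) and NN-MGC in 570 (21.0%), together 48.7% against 17.4% of narrower peaks. At 10000 counts or more the share with a non-neuronal top type was 65.7% in broad and 70.4% in narrower peaks, but from 3000 to under 10000 counts it was 34.7% and 32.7%, and from 1000 to under 3000 counts 18.8% and 14.7%. The order of broad and narrower peaks thus turned only in the highest class. These 2 types had the fewest counts, and the part of that in which type came out highest was not tested.

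Excitatory and inhibitory nuclei of the same libraries were then compared (log2 of excitatory over inhibitory, edgeR's quasi-likelihood test with the library as a block, Benjamini-Hochberg adjusted p under 0.05). With factors from all peaks, 2409 of 2715 broad peaks were called, 327 higher in excitatory and 2082 higher in inhibitory nuclei. Of all peaks tested, 60.5% were called, 31.2% higher in excitatory and 29.3% higher in inhibitory nuclei. The median of the broad peaks was -0.29, and that of those at a gene end -0.31, but narrower peaks at a gene end had -0.30 as well. Narrower peaks of 10000 counts or more had -0.33 against -0.31 in broad ones. Narrower peaks at gene ends thus had a median as low as that of broad ones.

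Setting the scale by narrower peaks at gene ends, an alternative chosen after seeing the data, removed that common offset. The median of broad peaks became 0.01, and 923 were higher in excitatory and 722 in inhibitory nuclei, where 44.0% and 15.2% of all peaks were called in these directions. At gene ends the split was 500 to 609 and elsewhere 423 to 113, against 93 to 1725 and 234 to 357 with factors from all peaks. The direction of most calls in broad peaks between these classes therefore rests on the scale. Where a member below changed direction or lost its call on the gene-end scale, that is stated beside it.

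Sox2 and Tbr1 had the largest differences between the neuronal classes among the list members. Tbr1, a T-box factor of cortical excitatory neurons, had 41.3, 40.1, 36.6 and 39.4 CPM in excitatory and 10.1, 11.7, 10.3 and 11.4 CPM in inhibitory nuclei. The classes did not overlap, and the log2 difference was 1.77 ± 0.05 (SE, edgeR adjusted p = 2.4e-26), or 2.07 on the gene-end scale. Sox2, a high-mobility-group factor of neural progenitors and glia, had 6.35, 7.13, 4.99 and 7.50 CPM in excitatory and 40.6, 38.8, 40.1 and 37.9 in inhibitory nuclei (-2.68 ± 0.08, edgeR adjusted p = 1.3e-12; -2.39 on the gene-end scale). Sox2 RNA was 0.887 CPM in excitatory and 16.1 in inhibitory nuclei. Foxp2, a forkhead factor, had 11.6, 12.6, 10.8 and 12.1 against 26.1, 28.4, 25.7 and 24.8 CPM (-1.24 ± 0.05), and RNA of 59.5 against 494 CPM. Maf, a leucine zipper factor of interneurons and macrophages, had 16.2, 16.0, 15.2 and 14.6 against 32.1, 33.9, 28.8 and 28.7 CPM (-1.07 ± 0.04).

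Bdnf, a neurotrophin gene with several activity-dependent starts, had its broad peak at chr2:109693042-109695136. Excitatory nuclei gave 20.5, 22.6, 20 and 21.9 CPM there and inhibitory nuclei 7.82, 7.57, 7.14 and 7.68, a log2 difference of 1.42 ± 0.06 (SE, edgeR adjusted p = 5.3e-21), without overlap. Bdnf RNA was 33.2 CPM in excitatory and 3.67 in inhibitory nuclei. The other 4 immediate early genes with a broad peak were called higher in inhibitory nuclei with factors from all peaks, among them Jun (-0.19) and Egr4 (-0.20). Of broad peaks at gene ends, 88.0% were called in that direction. On the gene-end scale Jun (0.11) and Egr4 (0.09) turned to higher in excitatory nuclei, so their direction depends on the scale. Egr1 (0.02, edgeR adjusted p = 0.35) and Ier5 (0.04, edgeR adjusted p = 0.26) were no longer called on that scale.

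Receptor genes were nearly even between the neuronal classes. Of the 18, 14 were called higher in inhibitory nuclei and 0 in excitatory with factors from all peaks. Of 1961 broad peaks at gene ends, 88.0% and 4.74% were called in these directions. The list median was -0.19, against -0.31 in broad peaks at gene ends and -0.02 over all peaks tested. On the gene-end scale 6 receptor genes were higher in inhibitory and 10 in excitatory nuclei (median 0.10). There 609 and 500 broad peaks at gene ends were called in these directions. The kainate receptor gene Grik3 kept its direction, with 19.2, 22.1, 23.8 and 23.3 CPM in excitatory and 41.0, 40.8, 43.4 and 36.8 in inhibitory nuclei (-0.95 ± 0.05, and -0.66 on the gene-end scale). Grm4, a presynaptic metabotropic receptor gene, did so too (-0.82 and -0.52). Grin1 had 40.0, 38.9, 43.5 and 38.6 against 52.8, 52.2, 53.0 and 50.6 CPM (-0.45 and -0.16).

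By the size of the difference among members at or above the median abundance (mean log2 CPM over the columns compared), the leading peaks higher in excitatory nuclei were at Ubxn10 and Pla2g2c (0.71), inside Dnm1, the dynamin gene of synaptic vesicle endocytosis (0.54), at chr2:61654732-61657350 (0.46), at Edil3 (0.27), at the adhesion gene Nectin3 (0.23) and at chr19:23133583-23136210 (0.22). Those higher in inhibitory nuclei were at Xkr6 (-0.94), the adaptor gene Shb (-0.89), the homeobox gene Meis1 (-0.80), the receptor kinase gene Alk (-0.78), Trim67 (-0.78) and Lbh (-0.78). All 12 stayed called in the same direction on the gene-end scale. Meis1 RNA went the other way from its peak, at 113 CPM in excitatory and 48.1 in inhibitory nuclei.

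RNA of the same genes was set beside the calls for protein-coding genes with 1000 RNA counts or more. Where the broad peak was called higher in excitatory nuclei, 42 of 43 genes also had more RNA there (median log2 ratio 0.98). Where it was called higher in inhibitory nuclei, 629 of 1576 genes (39.9%) had more RNA in excitatory nuclei, with a median log2 ratio of -0.06. Where it was not called, 66 of 83 genes (79.5%) had more RNA in excitatory nuclei (median 0.37). These calls are those with factors from all peaks, whose direction rests on the scale. Of 8 genes whose broad peak was higher in inhibitory nuclei by a factor of 2 or more, 0 had more RNA in excitatory nuclei (median -3.03).

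Neurons together were compared with non-neuronal nuclei in the same way. With factors from all peaks 541 broad peaks were higher in neurons and 1206 in non-neuronal nuclei, where 17.3% of all peaks were called, 9.4% and 7.95% in these directions. On the gene-end scale the counts were 1055 and 495, with 22.7% and 4.45% of all peaks. Broad peaks at gene ends had a median of -0.41 and narrower ones there -0.39 with factors from all peaks, and both were near 0 on the gene-end scale (0.00 and 0.03).

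**Figure D4:**
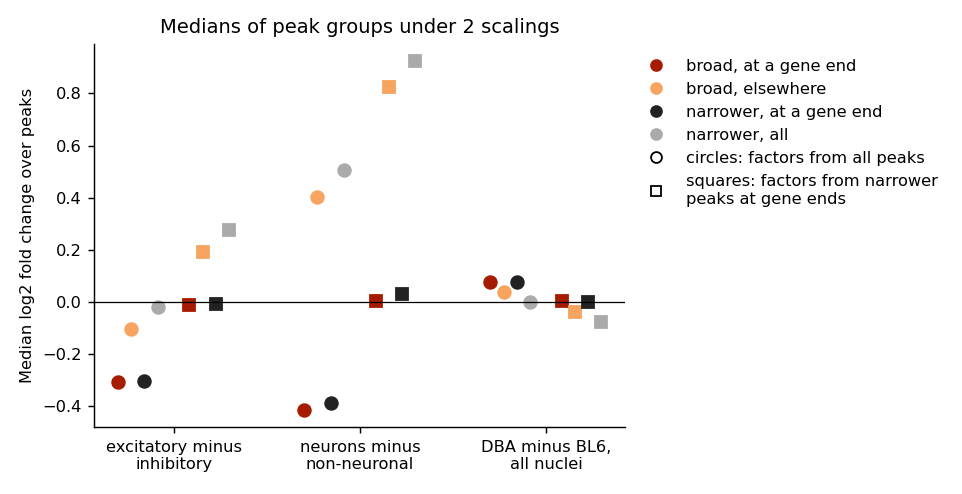
Median log2 fold change of 4 groups of peaks in 3 comparisons, with scaling factors from all peaks (circles) or from narrower peaks at gene ends (squares). Broad and narrower peaks at gene ends lie together under both scalings, at -0.31 and -0.30 for excitatory minus inhibitory with factors from all peaks.

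Several transcription factor genes had broad peaks called higher in non-neuronal nuclei. Pou3f2, a POU-domain factor of neural precursors, had 14.9, 17.6, 15.6 and 13.7 CPM in excitatory, 17.2, 20.6, 16.2 and 19.2 in inhibitory and 90, 59.5, 61.3 and 78.1 in non-neuronal nuclei. Neurons and non-neuronal nuclei did not overlap, and the log2 difference of neurons over non-neuronal nuclei was -2.19 ± 0.13 (SE, edgeR adjusted p = 1.2e-60), or -1.77 on the gene-end scale. Pou3f3 had -1.69 and Sox2 -1.50. With 5458 counts Pou3f2 lay below the median broad peak over all nuclei, and it reached the median abundance of this comparison only with the non-neuronal columns counted beside the neuronal ones. Further members of this direction were Hivep1 (-1.89), the Wnt receptor gene Fzd7 (-1.82), the growth arrest gene Gas1 (-1.66) and the lysosomal regulator gene Tfeb (-1.64). Of the 17 identity factors, 12 were called higher in non-neuronal nuclei and 1, Tbr1, in neurons, and on the gene-end scale 10 and 4. Of all 1961 broad peaks at gene ends, 55.7% and 13.3% were called in these directions, and 447 and 587 peaks on the gene-end scale. The list median was -1.10 with factors from all peaks, against -0.41 in broad peaks at gene ends and 0.50 over all peaks tested.

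Among members called higher in neurons were a peak inside Dnm1 (1.42) and those at the neurofilament gene Nefh (1.24), Ubxn10 and Pla2g2c (1.21), Rtbdn (1.17), the ubiquitin hydrolase gene Uchl1 (1.17), the synaptic vesicle gene Sv2c (1.15) and Syt1, the calcium sensor of transmitter release (1.15). Of the 18 receptor genes, 8 were called higher in neurons and 1 in non-neuronal nuclei, and 12 and 1 on the gene-end scale. Of all 1961 broad peaks at gene ends, 13.3% were called higher in neurons and 55.7% in non-neuronal nuclei, or 587 and 447 peaks on the gene-end scale. The peak of Grin1 had 24.5, 29.2, 29.3 and 21.9 CPM in non-neuronal nuclei, below every neuronal value (0.70 ± 0.15, SE, edgeR adjusted p = 5.8e-05).

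Of the 13 chromatin enzyme genes, 11 were called higher in non-neuronal nuclei and 0 in neurons, with 6 and 2 on the gene-end scale, where the first direction is also that of most broad peaks at gene ends with factors from all peaks (55.7%). Dnmt3a had 40.2, 43.6, 43.5 and 39.9 CPM in excitatory, 57.7, 57.2, 59.7 and 55.0 in inhibitory and 88.3, 80.6, 89.2 and 85 in non-neuronal nuclei, with no overlap between the 3 classes (neurons over non-neuronal nuclei -0.91 ± 0.12, SE, edgeR adjusted p = 4.7e-13). Its RNA did not follow this order, at 208 CPM in excitatory, 208 in inhibitory and 165 in non-neuronal nuclei.

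With factors from all peaks, strain differences in all nuclei were called in a smaller share of broad peaks than over the table. In all nuclei, 82 of 2715 broad peaks were called between the strains (3.02%), 51 higher and 31 lower in DBA, by edgeR's quasi-likelihood test with adjusted p under 0.05. The background was 6.44% of all peaks, 3.21% higher and 3.23% lower. The strains did not overlap in any of the 82, which largely follows from picking peaks by this test and is no further support. Without BL6 library 2 the count was 42 and without BL6 library 3 it was 46. Read within classes of total counts, broad and narrower peaks were closer: 11.3% against 7.82% from 1000 to under 3000 counts, 3.40% against 4.14% from 3000 to under 10000, and 0.573% against 0.960% at 10000 or more. In the lowest of these classes the broad share was the higher one.

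The number and direction of strain calls depended on scale and libraries. The median log2 difference of DBA over BL6 was 0.07 in broad peaks, with 80.5% above 0, and 0.08 in narrower peaks at a gene end. It was 0.03 without BL6 library 2 and 0.02 without DBA library 2. With factors from narrower peaks at gene ends the median was 0.00 and the calls were 57 higher and 102 lower in DBA, against 1.93% and 3.33% of all peaks. On that scale the share called in broad peaks was not smaller than that over the table. Members are therefore described below by size, and the general shift is given here once.

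Pooled over all depths, strain calls were rarest at gene ends, but this order did not hold in every class of total counts. Of broad peaks at a gene end 25 of 1961 were called (1.27%), inside genes 28 of 457 (6.13%) and between genes 29 of 297 (9.76%). Narrower peaks had 5.16%, 5.92% and 7.72%. From 1000 to under 3000 counts the order turned in narrower peaks, with 10.2% at gene ends, 7.404% inside genes and 8.14% between genes. Broad peaks of that class had 8.06%, 11.9% and 12.3%. From 3000 to under 10000 counts gene ends were lowest in both, at 2.25%, 3.37% and 8.45% in broad and 2.37%, 5.71% and 5.61% in narrower peaks. The pooled order thus depends in part on depth. At 10000 counts or more at a gene end, the shares were 0.470% of 1277 broad and 0.727% of 3026 narrower peaks.

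The largest strain differences were a gain in DBA inside Sp110 and Sp140, losses at Fggy and at a histocompatibility gene, and gains at 3 peaks without a named gene. The peak at Fggy, a carbohydrate kinase gene (chr4:95556818-95558818), had 23.4 and 23.5 CPM in BL6 and 2.24 and 2.45 in DBA (log2 difference -3.28, edgeR adjusted p = 1.9e-143). The peak at H2-T10, a non-classical class I histocompatibility gene (chr17:36120802-36122802), had 8.87 and 9.71 CPM in BL6 and 0.982 and 0.932 in DBA (-3.23). Its neighbourhood also differed, with 7 of 13 peaks within 50000 bases called. Genes of this family are close copies, so reads may be shared among them. Both peaks are exactly 2000 bases wide and are members by the narrowest margin.

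Among gains, chr6:47647770-47651583 rose from 41.9 and 44.6 CPM in BL6 to 267 and 280 in DBA, chr17:3081299-3083318 from 13.9 and 13.4 to 85 and 86.8, and chr4:3089457-3091464 from 2.10 and 1.47 to 11 and 10.4. The log2 differences were 2.70, 2.70 and 2.64. All 3 were called in excitatory and inhibitory nuclei as well. The chromosome 17 and chromosome 4 peaks were the 12th and 13th tested peaks from the start of their chromosomes, and of 12 neighbours within 50000 bases each, 3 and 0 were called. Whether copy number or the placing of reads from repeated sequence differs between the strains at these 3 peaks was not tested, so their levels may not measure accessibility alone. A peak inside Sp110 and Sp140, nuclear body protein genes (chr1:85590963-85593335), had 0.152 and 0.173 CPM in BL6 and 5.97 and 6.40 in DBA (5.27). There 7 of 8 neighbours were called in the same direction, with a median difference of 8.25. Copy number and the placing of reads were not tested at this peak either, so its level may not measure accessibility alone. Near Alyref2 on chromosome 1, 2 members were higher in DBA (0.68 at Alyref2 and 2.19 at chr1:171514733-171516849), and 22 of the 23 neighbours of the second were called with them.

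Further named members, at gene ends or inside genes or elsewhere, differed by less than Fggy and H2-T10. Tmem267 (chr13:119487145-119489280) had 48.7 and 52.1 CPM in BL6 and 21.9 and 22.5 in DBA (-1.14, edgeR adjusted p = 6.6e-25), with none of its 6 neighbours called. Asb4, an ankyrin repeat gene, had 19.5 and 18.3 against 9.15 and 9.60 CPM (-0.97). Bzw1, a translation regulator gene, had 44.7 and 49.6 against 28.0 and 28.8 CPM (-0.69). In the other direction Il3ra, the interleukin 3 receptor gene, had 36.1 and 38.5 against 49.5 and 58.3 CPM (0.57), a peak inside the kinesin gene Kifc3 30.2 and 31.5 against 42.0 and 40.1 (0.46), and Iffo2 61.3 and 66.4 against 81.9 and 77.2 (0.36). Without BL6 library 2, Il3ra, Kifc3 and Iffo2 were no longer called (edgeR adjusted p = 0.056, 0.20 and 0.65), and Iffo2 was also lost without BL6 library 3 or DBA library 2 (edgeR adjusted p = 0.15 and 0.20). Other losses were at chr9:123923090-123926361 (-0.64), inside the vesicle GTPase gene Rab3c (9.51 and 10.1 against 2.64 and 3.23 CPM, -1.70) and inside the kinase gene Mapk4 (26.6 and 26.2 against 10.7 and 9.92 CPM, -1.31).

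Of the 82 called peaks, 50 differed by less than 1.5-fold and 14 by 2-fold or more, 8 of them higher and 6 lower in DBA. They lay on 18 chromosomes, with 9 each on chromosomes 4 and 8 and none on chromosome 19. A called neighbour within 50000 bases was present for 56 of the 80 that had any neighbour. Of 1033 such neighbours 206 were called, 150 of them in the direction of the broad peak. Over all peaks tested the called share was 6.44%. How many of the 80 would have a called neighbour at that share was not tested. Neighbours were counted for each member, so members lying close together can share them.

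**Figure D5:**
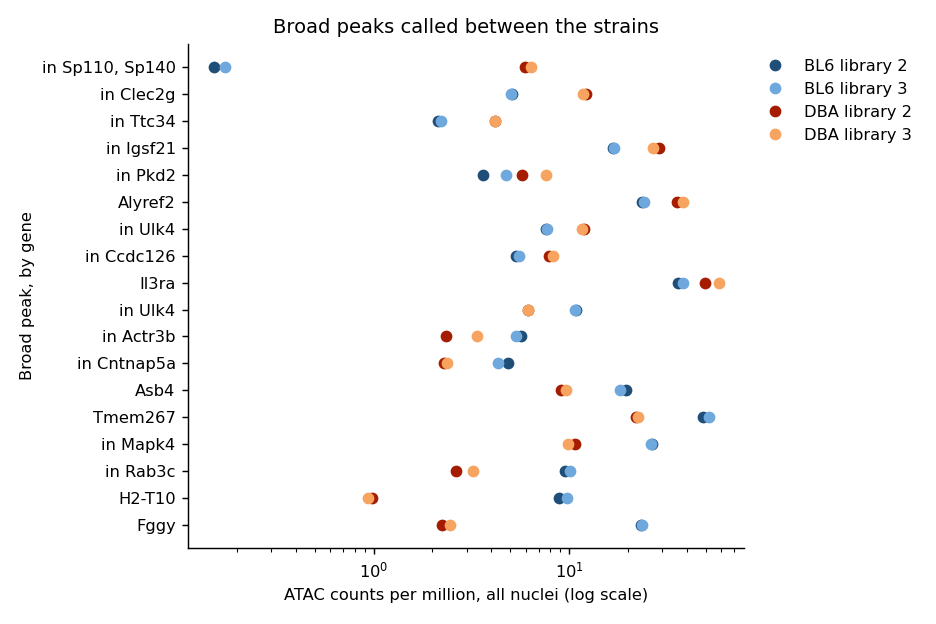
ATAC level in CPM on a log scale in each library for 18 broad peaks called between the strains, the 9 highest and 9 lowest in DBA among those with a gene name ("in" marks a peak inside the gene). The strains do not overlap in any of these peaks, which were picked by the test. Fggy falls from 23.4 and 23.5 in BL6 to 2.24 and 2.45 in DBA.

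The neuronal classes were also compared between the strains one at a time. In excitatory nuclei 72 broad peaks were called, 44 higher and 28 lower in DBA (4.93% of all peaks, 2.53% and 2.4%). In inhibitory nuclei 87 were called, 55 and 32 (3.47%, 1.88% and 1.58%). With factors from narrower peaks at gene ends the splits were 40 to 71 in excitatory nuclei (1.65% and 2.5% of all peaks) and 65 to 72 in inhibitory nuclei (1.59% and 1.86%). Leaving out a library changed the counts by more than 1.5-fold in both: 37, 42 and 121 in excitatory nuclei without BL6 2, BL6 3 and DBA 3, and 34, 29, 148 and 283 in inhibitory nuclei without BL6 2, BL6 3, DBA 2 and DBA 3. The strains did not overlap in 71 of the 72 peaks called in excitatory and in all 87 called in inhibitory nuclei. These peaks were picked by the test, so their separation is no further support. Both classes called 41 peaks, 56.9% of the excitatory and 47.1% of the inhibitory list, all in the same direction. Among them were Fggy, H2-T10, Tmem267, Asb4 and Bzw1.

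In non-neuronal nuclei 6 of 2447 broad peaks tested were called, 3 higher and 3 lower in DBA, where 0.192% of all peaks tested were called, 0.117% and 0.0748% by direction. Bzw1 was lower there too, and was not called without BL6 library 3 (edgeR adjusted p = 0.17). The count was 45 without DBA library 3 and 3 without BL6 library 3.

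The difference between the strains itself differed between neuronal classes in 11 broad peaks (interaction term, edgeR adjusted p under 0.05), 6 with a higher value in excitatory and 5 in inhibitory nuclei, where 0.246% of all peaks were called. The smallest p in the second direction was at a peak inside Coro2b, a coronin gene of the actin skeleton (chr9:62450258-62452979), with a strain difference of -0.50 in excitatory and 0.07 in inhibitory nuclei. The count without a library ranged from 4 (without BL6 2) to 18 (without DBA 2).

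Strain differences in RNA were mostly not shared with the broad peak at the gene. Of 2113 genes with a broad peak at an end, 76 were called in RNA (13 higher and 63 lower in DBA), where 4.88% of all genes tested were called, 1.71% and 3.18% by direction. Genes tested had 10 counts or more in each strain, since the strains' gene names differ in part. The count was 117 without BL6 library 2, 36 without DBA library 2 and 33 without DBA library 3. In 2 of the 76, Fggy and Tmem267, the broad peak was called too, both in the direction of the RNA.

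Fggy RNA fell from 57.7 and 51.7 CPM in BL6 to 2.24 and 2.19 in DBA (log2 difference -4.58, edgeR adjusted p = 2.0e-05). Tmem267 RNA fell from 9.97 and 9.81 to 4.08 and 4.94 CPM (-1.08, edgeR adjusted p = 0.022), and was not called without DBA library 2 or DBA library 3 (adjusted p = 0.15 and 0.099). Other genes changed in RNA over a broad peak whose strain difference was not called. B4gat1, a glycosyltransferase gene, had 23.5 and 20.8 CPM of RNA in BL6 and 0.405 and 0.336 in DBA, while its peak had 42.4 and 40.4 against 43.2 and 41.8 CPM. Glcci1 fell from 60.0 and 64.7 to 2.40 and 2.15, Zfp91 from 51.7 and 49.9 to 2.21 and 2.63, the chromatin gene Adnp from 64.9 and 61 to 4.82 and 6.04, and the myosin light chain gene Myl12b from 48.4 and 43.3 to 5.04 and 4.76 CPM, with peak differences of 0.03 to 0.10. Rnf152, a ubiquitin ligase gene, rose from 13.1 and 11.5 to 40.7 and 36.8 CPM (1.70), and Sv2c from 84.7 and 77.5 to 149 and 129 (0.82), with peak differences of 0.12 and 0.23 that were not called. Sv2c RNA was not called without DBA library 2 (edgeR adjusted p = 0.071). The RNA calls of B4gat1, Glcci1, Zfp91, Adnp and Myl12b held under every alternative run. The part of the differing gene names in these levels was not tested.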

How the data were processed

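Counts per peak and per gene, summed by the authors over the nuclei of each cell type in each library, were used as deposited (whole counts, no normalization). Per the submitters' processing notes, ATAC data were made with Cell Ranger ATAC 2.0.0 and Seurat, RNA data with Cell Ranger 6.0.2 and Seurat 4.0.5, on mm10; peak calling and merging are not given in the sources used here. Positions are those of the row names. Methylation data of 16 libraries were not analysed here. Columns were summed to all nuclei and to classes. edgeR 4.0.16 (TMM factors, filterByExpr, robust quasi-likelihood test) was fitted on the whole table with Benjamini-Hochberg adjustment at 0.05. DESeq2 1.42.0, RLE factors, no filter, a replicate block and leaving out libraries were alternatives. The members and lists were chosen with earlier results of these data known. Named peaks were the 8 densest and the 8 widest, 3 on each side of the width limit, the 5 lowest and highest in tau, the 6 largest called differences each way at or above the median abundance, and up to 4 interaction calls each way by p; named RNA genes were up to 6 each way by fold change. Some items these rules name are not reported here. Other named peaks (Fggy, H2-T10, Sp110, Asb4, Mapk4, Rab3c, Alyref2, chr4:3089457-3091464) were chosen after their values were seen. On simulated counts for the all-nuclei strain comparison over the whole table, the test was checked for recovery of known changes. RefSeq symbols matched 24752 of 34039 RNA names. CPM values use column totals.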

Additional observations from a re-analysis of the deposited data

Results flagged for a closer look

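In 11 broad peaks the strain difference itself differed between excitatory and inhibitory nuclei (interaction term, edgeR adjusted p under 0.05), and the 4 with the smallest p each way are given here as the excitatory minus the inhibitory log2 difference. It was 0.61 at chr18:85153642-85155988, 0.48 at chr7:19931719-19933891, 0.52 at chr8:120190085-120192120 and 0.34 at chr8:83874314-83877157. It was -0.57 inside Coro2b, -1.26 at chr5:89389145-89391235, -0.83 at chr4:9705854-9707939 and -0.64 at chr5:104357299-104359695.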

How the results depend on the processing

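Counts of called broad peaks depended on the libraries and on the settings. Without 1 library, the strain calls ranged from 42 to 112 in all nuclei (82 with all libraries), 37 to 121 in excitatory (72), 29 to 283 in inhibitory (87) and 3 to 45 in non-neuronal nuclei (6), the interaction calls from 4 to 18 (11) and the RNA calls from 33 to 117 (76). With factors from narrower peaks at gene ends, chosen after seeing the data, strain calls were 159, 111 and 137 in all, excitatory and inhibitory nuclei. DESeq2 called 46 in excitatory and 33 in inhibitory nuclei. RNA calls were 179 over every gene of the table. Library numbers did not pair the samples (correlations of deviations -0.041 in ATAC and -0.267 in RNA): with a replicate block, 60, 63, 75 and 5 broad peaks were called in all, excitatory, inhibitory and non-neuronal nuclei, and 37 genes in RNA. With the numbers crossed between strains, RNA gave 234. The share of counts was 28.0% for peaks of 1500 bases or more and 1.07% for 3000 or more, against 10.2%. Median tau was 0.490 in thinned counts. It was 0.185 with a minimum of 1000000 counts per column, which kept 8 types, all neuronal, and left out NN-OPC and NN-MGC. That value is thus over another set of types, and the part of depth in it was not tested. The share at a gene end was 76.3% within 2 kb, 82.4% within 10 kb, 66.8% for protein-coding genes, 59.0% from 1500 bases and 84.5% from 3000. With factors from narrower peaks at gene ends, Jun (0.11) and Egr4 (0.09) reversed between the neuronal classes. Under the other alternatives run for it, no named peak or gene reversed. Depth was lowest in non-neuronal nuclei, at 1222826 to 1847735 counts per library.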
